A study of Drosophila melanogaster with 6 samples.

Results

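The epithelial cell nuclei were the 4794 nuclei that the deposited annotation placed in cluster 2, which it named epithelial cell, out of 43027 nuclei in all (11.1%). They came from single-nucleus RNA sequencing of female *Drosophila melanogaster* without heads, with 2 libraries each from fed flies, from flies at day 2 of starvation and from flies at day 5 of starvation. Every group carried the genotype PromE-gal4, Tub-gal80ts, which joins a Gal4 driver active in oenocytes to a ubiquitous temperature-sensitive inhibitor of Gal4, and the labels name no target transgene. Flies grew at 18 °C and were kept at 29 °C as adults, for which the labels give both 5 and 7 days for the same flies. The labels of every group give 48 hours for collection, and by the study's methods adults were 2 days old at the move to 29 °C. Starved flies were kept on an agar medium from which all calories but those of its acetic acid had been left out. Flies were pooled for each preparation, and the sources used here leave unsaid whether different flies went into the 2 libraries of each condition. The p-values therefore measure only the spread between these libraries, which may be technical.

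The adult epidermis is a sheet of epithelial cells that secreted the cuticle during the pupal stage and stays attached beneath it in the adult. Its cells make chitin and cuticle proteins on their apical face, and they turn tyrosine into dopamine derivatives that harden and colour the cuticle. The transcription factor Grainy head, encoded by *grh*, is active in epidermis, tracheae and other epithelia that bear a cuticle, and Hox genes give the epidermis of each body segment its identity.

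Levels are given as UMIs of a gene per 10000 UMIs summed over the epithelial nuclei of a library, where a UMI marks 1 captured RNA molecule. The fed libraries held 1090 and 1103 epithelial nuclei, the day 2 libraries 868 and 881, and the day 5 libraries 419 and 433. Median UMIs per epithelial nucleus were 832 and 828 in fed flies, 859.5 and 904 at day 2, and 799 and 805 at day 5, and 5135561 UMIs stood behind all values, so that the day 5 values rest on the fewest molecules. Across libraries 179 barcodes occurred more than 1 time, of which 42 included an epithelial nucleus. Sub-cluster 14 of the epithelial nuclei, with 63 nuclei, came entirely from the day 2 libraries, and results that rest on it are given with and without it.

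The label held for its marker. *grh* had 11.8 UMIs per 10000 in epithelial nuclei and 0.517 in all other nuclei, the highest level among the 26 clusters of the annotation, and 55.2% of epithelial nuclei had a *grh* UMI, against 0.860% of flight muscle nuclei (median depths between 799 and 904 UMIs per library in epithelial nuclei and between 874.5 and 1094 in flight muscle). The *grh* levels were 11.7 and 10.7 in fed flies, 12.3 and 13.1 at day 2, and 10.4 and 12 at day 5, and *grh* was called in neither comparison with fed flies (adjusted p = 0.77 at day 5). *kkv*, the chitin synthase gene, reached its highest level of all clusters here, at 0.204, while *dy* and *dyl*, which encode apical membrane proteins of cells forming cuticle, were near 0, at 0.0117 and 0.0273.

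Markers of the trachea, the tubes that carry air, were also high in these nuclei. *trh*, which encodes the transcription factor that specifies tracheal cells, had a level of 1.88 in epithelial nuclei and 0.0781 in the rest, and *Gasp*, a chitin-binding protein gene of the tracheal cuticle, had 1.93 and 0.0745. Both were at their highest here among the 26 clusters, and in the cluster that the annotation names trachea cells they stood at 0.0110 and 0.0198. The summed level of the 4 tracheal markers was between 11.3 and 14.4 in every library. *grh*, *kkv*, *trh* and *Gasp* were thus at their highest in this cluster, but other markers were not. *vvl* and *btl*, also tracheal markers, stood at 8.58 and 0.668 here and at 34.9 and 1.03 in oenocyte and pylorus nuclei. *crb*, a polarity gene, stood at 4.605, against 11.95 in the trachea cluster, and *Nrx-IV*, a junction gene, at 0.493, against 0.527 in all other nuclei. The further epithelial markers *knk*, *Cad87A* and *cora* were also higher in another cluster.

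The genes with the highest ratio of epithelial level to the level in other nuclei, among 1959 genes with at least 500 epithelial UMIs, describe the cluster and carry no test, since all genes entered the clustering. *CG13731* led with a ratio of 112, but its level was 2.15 and 3.24 at day 2 and at most 0.00876 in every fed and day 5 library. The related nuclear receptor genes *knrl* and *kni*, known from patterning of the embryo and of tracheae, had ratios of 48.9 and 43.0. *knrl* was near the same level in every library, with 7.51 and 7.33 in fed flies, 8.47 and 8.41 at day 2, and 8.59 and 9.02 at day 5, though both starved conditions lay above the fed one. *ple*, which encodes tyrosine hydroxylase, had a ratio of 45.9, *wat*, a fatty acyl-CoA reductase gene needed for gas filling of tracheae, 39.7, *hgo*, which encodes homogentisate dioxygenase of the tyrosine breakdown route, 34.1, and *verm*, a chitin deacetylase gene, 34.9. *CG34208* entered this list through a single library: its level was 12.6 in day 5 library 1 and at most 0.418 in the other 5 libraries.

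Clustering of the epithelial nuclei alone gave 16 sub-clusters, which are named here by number and leading genes. Sub-cluster 1 was the largest, with 1245 nuclei led by *retinin* and *DAT*, and *Hpd*, the gene of 4-hydroxyphenylpyruvate dioxygenase, stood at 18.6 in it and at 1.26 in the other epithelial nuclei. Sub-clusters 2 and 12, with 434 and 157 nuclei, were trachea-like by *trh*, which stood at 14.2 and 11.6 in them. *btl*, the FGF receptor gene that guides tracheal branching, stood at 2.28 and 4.63, and *vvl*, another tracheal transcription factor gene, at 14.6 and 13.7. *Gasp* was high in sub-cluster 12, at 7.42, but in sub-cluster 2 it stood at 1.47, against 1.98 in the other epithelial nuclei. *vvl* was higher in sub-cluster 8, at 21.8, and *btl* in sub-cluster 11, at 2.56, exceeded its level in sub-cluster 2. Sub-cluster 3, with 369 nuclei, was led by *sr*, which encodes the transcription factor of tendon cells that anchor muscle to cuticle (13.0, against 0.620 in the other epithelial nuclei). Sub-cluster 8, with 283 nuclei, held *sv*, the Pax2 gene of sense organ support cells, at 57.6, against 0.815 in the others, and also *B-H1* and *B-H2*, homeobox genes of sense organs. Sub-cluster 11, with 165 nuclei, held the hindgut factor gene *byn* at 4.58, against 0.157. *ple* was most concentrated in sub-clusters 15 and 16, with 59 and 42 nuclei, at 36.9 and 31.2. These leading genes describe the sub-clusters and were not tested.

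Hox genes were each found in a part of the nuclei, whose place in the body was not measured. At their own depth, 11.5% of epithelial nuclei had a UMI of *Antp*, the gene of the thoracic segments, 16.4% of *Ubx*, which acts in the posterior thorax and anterior abdomen, 13.6% of *abd-A*, of the middle abdomen, 9.12% of *Abd-B*, of the posterior abdomen, and 2.86% of *Scr*, of the anterior thorax. The shares in flight muscle were 0.692% for *Antp*, 2.88% for *Ubx*, 0.440% for *abd-A*, 0.157% for *Abd-B* and 0.0734% for *Scr*. The head genes were rarer, with *lab* in 0.146% of epithelial nuclei (0.0629% in flight muscle) and *pb* in 0.459% (0.220%). *Dfd*, also of the head, was found in 0.584% (0.0105%). Thinned to 800 UMIs, 2652 nuclei could be compared at equal depth. Among these *Antp* and *Ubx* were found together in 128 nuclei, where 49.1 would be found if the genes were spread independently (observed over expected 2.61), and *abd-A* and *Abd-B* in 53 where 30.2 would be found (1.75).

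*Abd-B* was seldom found with *Antp* or *Ubx*. *Antp* and *Abd-B* shared 6 nuclei where 30.6 would be found (0.196), and *Ubx* and *Abd-B* shared 12 where 38.9 would be found (0.308), each below expectation in all 6 libraries. *Ubx* and *abd-A*, which act in neighbouring segments, were close to independence (1.09), and *Antp* and *abd-A* shared 61 nuclei where 38.1 would be found (1.60), below expectation in 1 library. These ratios are descriptions, since nuclei of a library are not replicates. At their own depth, 53.3% of the nuclei of sub-cluster 13 had an *abd-A* UMI and 43.0% an *Abd-B* UMI. In sub-cluster 7 these shares were 32.3% and 59%. The part in these ratios of sub-clusters 7 and 13, and of the trachea-like sub-cluster 12, high in *Antp*, *Ubx* and *abd-A*, was not tested.

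**Figure D1:**
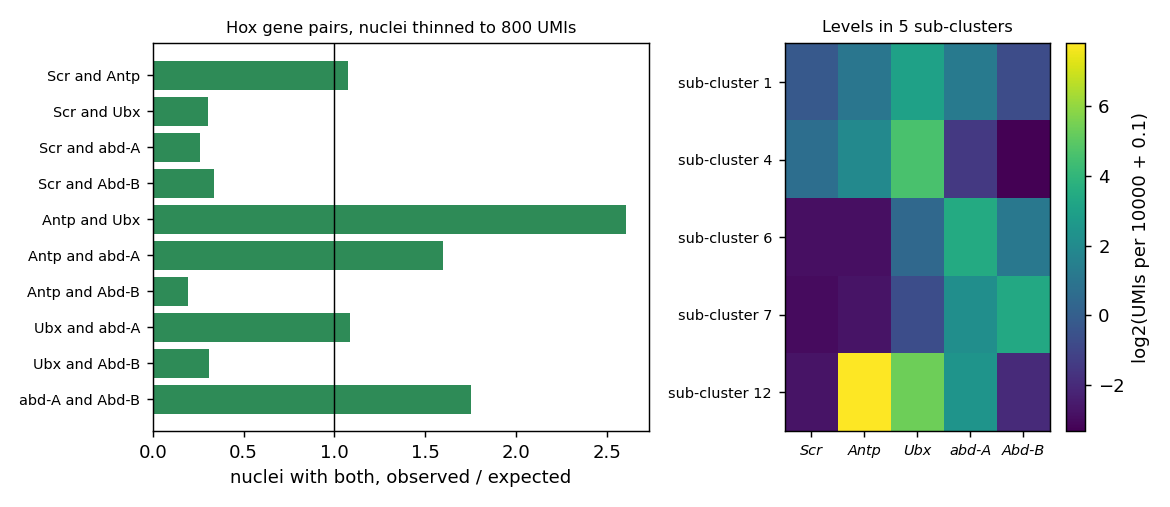
Left, observed over expected number of nuclei with a UMI of both Hox genes, in 2652 epithelial nuclei thinned to 800 UMIs, where the line at 1 marks independence: the bars for *Antp* and *Ubx* (2.61) and for *abd-A* and *Abd-B* (1.75) lie right of the line, and those for *Antp* and *Abd-B* (0.196) and *Ubx* and *Abd-B* (0.308) left of it. Right, log2 level in 5 sub-clusters, with *Antp* highest in sub-cluster 12 and *Abd-B* in sub-cluster 7.

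Sub-clusters differed in their Hox genes. *Antp* reached 224 UMIs per 10000 in the trachea-like sub-cluster 12, with 96.8% of its nuclei positive, and *Ubx* reached 40.6 there, with 63.7% positive. The same sub-cluster had *abd-A* at 5.28, with 40.1% of its nuclei positive. *Ubx* was also high in sub-cluster 4, led by *CrzR*, at 24.4, while *abd-A* peaked in sub-cluster 6, led by *CG2070* and *Cyp4aa1*, at 11.0, and *Abd-B* in sub-cluster 7, led by *CG14257* and *rk*, at 10.6. Sub-cluster 6 held 1 and sub-cluster 7 held 2 *Antp* UMIs. Sub-cluster 12 held 4497 of the 5403 *Antp* UMIs of all epithelial nuclei, which is why it stands in the heat map beside the bars of Hox pairs. *trh* and *btl* shared 52 nuclei where 13.8 would be found (3.76), whereas *grh* and *trh* shared 73 where 120 would be found (0.607), below expectation in all 6 libraries.

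The share of epithelial nuclei among all nuclei was 11.6 ± 0.230% at day 2 and 10.9 ± 0.226% at day 5, against 10.9 ± 0.0668% in fed flies (SD, n = 2 libraries each), and limma on log2 shares over the clusters called no difference (adjusted p = 0.253 at day 2 and 0.899 at day 5). Outside the 10 ovary and oviduct clusters, whose summed share ranged between 18.4% and 34.9% across libraries, the epithelial share was 17.8 ± 0.414% at day 2 and 13.5 ± 0.134% at day 5, against 15.3 ± 0.0945% in fed flies (SD, n = 2). On that base both differences passed the threshold, in opposite directions (log2 difference 0.21, adjusted p = 0.0159 at day 2, and -0.18, adjusted p = 0.0305 at day 5, limma), so the direction at day 5 depends on the denominator.

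Changes of gene level were tested with limma on the mean deposited value per library for 7479 genes, at an adjusted p of 0.05. At day 2, 313 genes differed from fed flies (4.19% of those tested), 119 higher (1.59%) and 194 lower (2.59%). At day 5 the number was 1463 (19.6%), with 494 higher (6.61%) and 969 lower (13%), and 853 genes differed between day 5 and day 2 (11.4%), 217 higher at day 5 (2.9%) and 636 lower (8.5%). On summed UMIs the counts were 174, 877 and 439, of which 160, 770 and 352 were also called on the mean values. The median log2 difference over all tested genes was -0.12 at day 5 against fed flies on summed UMIs. With median-ratio scaling the calls on summed UMIs at day 5 against fed flies split into 443 higher and 473 lower, and those at day 5 against day 2 into 207 and 244. Both comparisons with fed flies use the same fed libraries. Calls on mean values shared, in direction too, by other body nuclei outside the ovary numbered 233 at day 2 and 1107 at day 5. Without sub-cluster 14 the day 2 count was 246, of which 63 higher and 177 lower calls were shared with the count over all nuclei. Fold changes below come from summed UMIs as log2 ± SE, and adjusted p values are those of limma on the mean values.

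Eggshell RNA dominated the falls. Chorion and vitelline membrane genes are made by follicle cells of the ovary, and all 18 measured ones were called lower at both times. Their summed level in epithelial nuclei was 88.0 and 87.4 in fed flies, 0.784 and 1.01 at day 2, and 0.232 and 0.173 at day 5. In flight muscle nuclei of the same libraries it was 86.9 and 81.0, 0.808 and 0.991, and 0.210 and 0.242. *Cp36*, for example, stood at 9.35 and 10.5 in fed flies and at no more than 0.00996 in each starved library. In the other body nuclei outside the ovary the summed level was 52.5 and 46.5 in fed flies, 0.920 and 1.15 at day 2 and 0.584 and 0.617 at day 5. The part of RNA from other cells in these falls was not tested.

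The digestive protease genes *CG12374* and *Jon65Aiv*, the lysozyme gene *LysD* and the yolk gene *Yp2* filled the rest of the list of strongest falls. *Jon65Aiv* had 18.8 and 17.7 in fed epithelial nuclei, 2.80 and 2.65 at day 2 and 1.29 and 1.10 at day 5, with 19.9 and 19.4, 3.32 and 3.05, and 1.68 and 1.44 in flight muscle. The summed level of 5 fat body markers in epithelial nuclei was 22.1 and 21.1 in fed flies, 10.9 and 11.0 at day 2 and 4.41 and 3.99 at day 5, and that of 4 enterocyte markers was 22.5 and 21.0, 11.9 and 12.1, and 6.67 and 5.48. Those of muscle (8 markers) were higher at day 5, at 26.8 and 26.7, than in fed flies, at 13.9 and 18.8. The part of these markers in the results below was not tested. Beside the strongest changes of all, genes were therefore chosen for which the epithelial level was at least 3 times that of all other nuclei and whose calls held with and without sub-cluster 14, a rule set after values had been seen.

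At day 2, 9 such epithelial-high genes passed on both scales with separate groups, 6 higher and 3 lower. Of all tested genes 1.59% were called higher and 2.59% lower on mean values, and 46.2% had day 2 and fed libraries that did not overlap. The count of 9 is a description, since the level was taken over all libraries and *Lcp65Ag1* and *CG30457* passed that rule through the day 2 libraries alone. *CG41520*, whose level in other nuclei was 1.60, had 31.5 and 31.7 in day 2 nuclei, against 23.2 and 23.3 in fed nuclei (log2 0.44 ± 0.07, adjusted p = 1.0e-07). At day 5 it had 31.0 and 33.4, so that both starved conditions lay above fed flies and overlapped each other. It kept its call without any single library, with an adjusted p of at most 0.00678 at day 2.

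*tx*, the gene of the basic helix-loop-helix factor Delilah, had 1.68 and 1.79 in day 2 nuclei, against 0.692 and 0.722 in fed nuclei (log2 1.29 ± 0.19, adjusted p = 0.0069). *CG10211* had 1.25 and 1.24 at day 2, against 0.245 and 0.405 in fed nuclei (1.97 ± 0.27, adjusted p = 3.2e-04), and at day 5 it had 0.380 and 0.477 (adjusted p = 0.016 against fed nuclei). *CG14880* had 1.12 and 0.996, against 0.228 and 0.423 (1.75 ± 0.35, adjusted p = 0.034). Each of the 3 genes lost its call without fed library 1, fed library 2 or day 2 library 2, with adjusted p of up to 0.488 for *tx*, 0.139 for *CG10211* and 0.677 for *CG14880*. With the shares of the sub-clusters held fixed, *tx* also lost it (adjusted p = 0.173). The other 2 higher ones, *Lcp65Ag1* and *CG30457*, had 0 UMIs in fed flies and are given with sub-cluster 14.

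Among the falls, *Cpr49Ab*, a cuticle protein gene of the Rebers and Riddiford family, stood at 9.30 and 8.93 in fed flies, 5.06 and 6.24 at day 2 and 3.97 and 4.46 at day 5. It fell at both times (log2 -0.70 ± 0.12, adjusted p = 0.0055 at day 2, and -1.11 ± 0.12, adjusted p = 1.8e-05 at day 5), and the 3 conditions did not overlap. *CG5945* stood at 5.35 and 5.08, 3.34 and 3.42, and 1.46 and 1.47, and fell by 0.63 ± 0.11 at day 2 (adjusted p = 0.0012) and by 1.82 ± 0.11 at day 5 (adjusted p = 2.0e-08) on the log2 scale. It was the epithelial-high gene with the smallest adjusted p among those lower at day 5. *CG4269* was lower at day 2 (adjusted p = 0.034), at 0.0544 and 0.0299, against 0.377 and 0.511 in fed nuclei. At day 2 *CG5945* lost its call without fed library 1 (adjusted p = 0.153) or day 2 library 2 (0.0834), *Cpr49Ab* without either fed library (0.193 and 0.137) or day 2 library 1 (0.149), and *CG4269* without any one of these 4 libraries (0.0751 to 0.322). At day 5 *CG5945* and *Cpr49Ab* kept theirs without each library in turn.

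At day 5, 56 epithelial-high genes were called higher and 37 lower on both scales with separate groups, and the 12 of each direction that ranked first by adjusted p are described. Of all tested genes 6.61% were called higher and 13% lower on mean values. The counts of 56 and 37 are descriptions, since the level was taken over all libraries, day 5 among them, which helps higher genes pass. Separate groups were part of the rule, and 58.5% of all tested genes had day 5 and fed libraries that did not overlap. *Ance-3*, of the angiotensin-converting enzyme family, had 6.99 and 7.96 in day 5 nuclei, against 2.80 and 2.85 in fed nuclei (log2 1.40 ± 0.11, adjusted p = 3.5e-07), with 3.42 and 3.48 at day 2. The gene spans *Vajk1*, *Vajk2* and *Vajk3* on the opposite strand, and use of strand in the counting is not given in the sources used here, so its reads cannot be told apart from theirs with certainty. *Cpr67B*, a cuticle protein gene, had 3.15 and 5.42 at day 5, against 1.45 and 1.31 in fed nuclei (1.58 ± 0.22, adjusted p = 2.7e-06). Both genes rose while *Cpr49Ab* fell.

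*sv* had 4.90 and 7.20 in day 5 nuclei, against 2.48 and 2.65 in fed nuclei (log2 1.21 ± 0.17, adjusted p = 3.3e-06). Sub-cluster 8, in which *sv* was highest, held 9.55% and 11.1% of the epithelial nuclei at day 5, against 3.95% and 4.08% in fed flies. With the shares of the sub-clusters held fixed the *sv* difference in mean value was 0.16 (adjusted p = 0.018), against 0.471 as measured. *B-H1* and *B-H2*, also highest there, were called higher at day 5 (adjusted p = 0.0089 and 0.048) and had differences of 0.0255 and -0.04 with fixed shares (adjusted p = 0.65 and 0.53), so their calls depend on the make-up of the nuclei. Neither was called on summed UMIs (0.0599 and 0.255).

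Further epithelial-high genes called higher were *cpo*, which encodes an RNA-binding protein, at 28.8 and 34.9 in day 5 nuclei, against 20.3 and 21.2 in fed nuclei (log2 0.61 ± 0.11), *Msr-110*, at 27.8 and 25.8, against 17.9 and 17.2 (0.61 ± 0.08), and *CG9336*, at 14 and 12.6, against 6.88 and 6.84 (0.95 ± 0.10). *Tie*, a receptor tyrosine kinase gene, had 6.35 and 5.85, against 4.11 and 4.56 (0.50 ± 0.11). *CG7059* was a low gene with a large difference, at 0.422 and 0.368, against 0.0350 and 0.0440 (3.21 ± 0.40). The adjusted p values of these 5 genes lay between 5.8e-06 for *Msr-110* and 4.8e-05 for *Tie*.

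**Figure D2:**
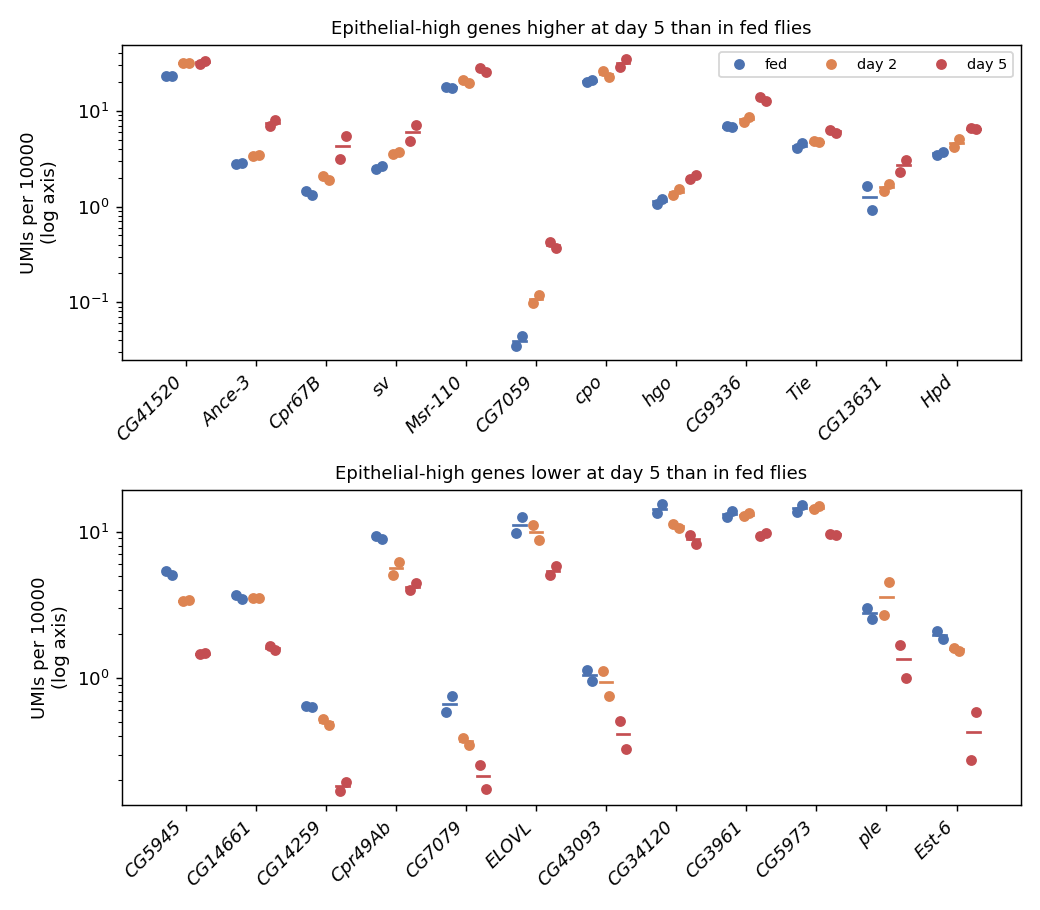
Level of the 12 first-ranked epithelial-high genes higher (top) and lower (bottom) at day 5 than in fed flies, in UMIs per 10000 on a log axis, with 1 point per library and a line at the mean of the 2 libraries of a condition. The 2 day 5 points lie on 1 side of the 2 fed points for every gene shown, as the choice of genes required, and the day 2 points lie between them for *Cpr49Ab* and *CG5945* but close to the fed points for *CG14661* and *CG5973*.

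The lower genes spanned cuticle, lipid and secreted products. *ELOVL*, which by its name encodes a very long chain fatty acid elongase, had 5.04 and 5.81 in day 5 nuclei, against 9.72 and 12.6 in fed nuclei (log2 -1.03 ± 0.15, adjusted p = 8.8e-05). *Est-6*, a carboxylesterase gene that overlaps *thoc6*, had 0.274 and 0.585, against 2.10 and 1.86 (-2.27 ± 0.30, adjusted p = 2.7e-04). *CG14661* had 1.65 and 1.56 at day 5, against 3.68 and 3.48 in fed nuclei (-1.15 ± 0.12), and its day 2 levels of 3.54 and 3.52 lay with the fed ones. With the sub-cluster shares held fixed all 24 kept their call, and without single libraries all kept it except *ple*, *Hpd* and *CG5973* without fed library 1 (adjusted p = 0.0515, 0.0546 and 0.0510) and *CG34120* without fed library 2 (0.0572). On UMIs thinned to 800 per nucleus 20 of the 24 kept it, and *Hpd*, *hgo*, *Tie* and *CG7079* did not. The fixed shares left out the sub-clusters with few nuclei in some library, among them 15 and 16, where *ple* was most concentrated.

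Genes of tyrosine metabolism changed in both directions at day 5. The epidermis uses tyrosine through Pale, the tyrosine hydroxylase, and Dopa decarboxylase to make dopamine for the cuticle, and the breakdown route leads instead over 4-hydroxyphenylpyruvate and homogentisate to fumarate and acetoacetate. This set of 10 genes was drawn up after *ple*, *Hpd* and *hgo* had come up by the rule above, so its counts support nothing further. *ple* had 1.69 and 0.997 in day 5 nuclei, against 3.03 and 2.53 in fed nuclei (log2 -1.08 ± 0.28, adjusted p = 2.3e-04), while its day 2 levels of 2.69 and 4.52 overlapped the fed ones. *Ddc*, the Dopa decarboxylase gene, had 2.53 and 2.56, against 3.77 and 4.12 (-0.63 ± 0.11, adjusted p = 0.048), but its call was lost with fixed sub-cluster shares (adjusted p = 0.39) and without any 1 library other than day 5 library 1 (0.0806 to 0.367).

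In the breakdown route *Hpd* had 6.61 and 6.46 in day 5 nuclei, against 3.46 and 3.73 in fed nuclei (log2 0.86 ± 0.12, adjusted p = 1.3e-04). *hgo* had 1.94 and 2.12, against 1.07 and 1.21 (0.84 ± 0.16, adjusted p = 3.1e-05), and *GstZ2*, a maleylacetoacetate isomerase gene, 0.887 and 1.24, against 0.394 and 0.476 (1.27 ± 0.30, adjusted p = 0.0043). All 3 had day 5 levels above both fed libraries, which the rule that chose *Hpd* and *hgo* required. Day 5 and fed libraries did not overlap for 58.5% of all tested genes. *Faa*, of the last step, was also called higher (adjusted p = 0.039) and *CG1461* lower (0.047), but neither on summed UMIs (0.121 and 0.163). *Hn*, *Pu* and *GstZ1* were not called at either time, and none of the 10 was called at day 2. *hgo* and *Hpd* were found together in 91 thinned nuclei where 21.5 would be found (4.24). *Hpd* overlaps *CtIP*, and *Ddc* overlaps *CG10561*, on the opposite strand.

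**Figure D3:**
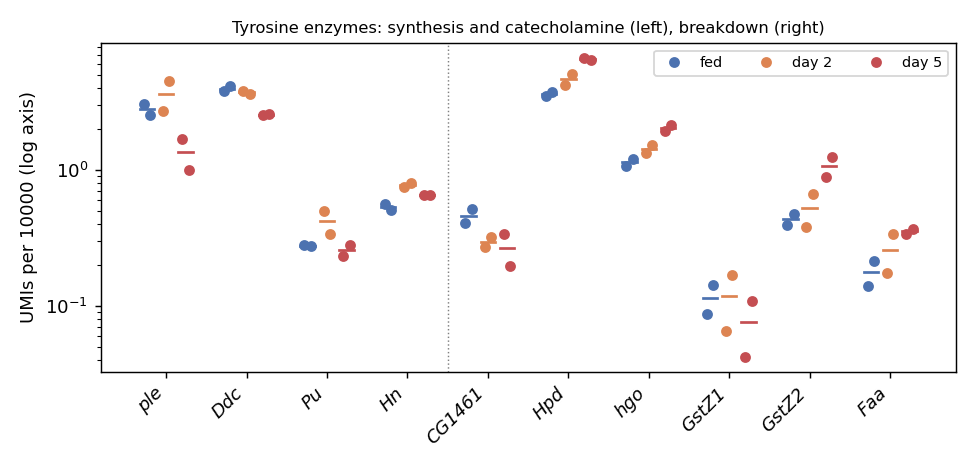
Level of 10 genes of tyrosine metabolism in UMIs per 10000 on a log axis, with 1 point per library and a line at the mean of the 2 libraries of a condition: synthesis and catecholamine genes left of the dotted line, breakdown genes right of it. *ple* and *Ddc* are lower at day 5 than in fed flies, and *Hpd*, *hgo* and *GstZ2* are higher.

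Ribosomal protein genes, which encode the parts of the ribosome, gave different pictures on the 2 scales. On mean values 77 of 84 tested cytosolic ribosomal protein genes were called lower at day 5 and 0 higher, with a median difference of -0.35, beside 13% of all genes called lower. On summed UMIs 3 were lower and 7 higher, with a median log2 difference of 0.05. The median epithelial nucleus gave 4.83% and 4.46% of its UMIs to ribosomal protein genes at day 5, against 8.37% and 8.26% in fed flies, and the groups were far apart. With nuclei thinned to 800 UMIs the medians were 4.88% and 4.13%, against 7.13% and 7.00%.

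Sub-cluster 9, with 271 nuclei led by *CG34208*, *Nplp3* and *CG7409*, ran the other way, at 19.0% and 17.5% at day 5, against 14.1% and 14.8% in fed flies. Of its leading genes *CG34208* was high in epithelial nuclei of day 5 library 1 alone (12.6, and at most 0.418 in each other library). Sub-cluster 9 held 10.5% and 11.3% of the epithelial nuclei at day 5 and 57.7% and 50.3% of their ribosomal protein UMIs, against 4.04% and 4.53% of the nuclei and 15.1% and 12.5% of those UMIs in fed flies. Muscle genes were high in it, with *sls*, which encodes the giant sarcomere protein Sallimus, at 42.3, against 3.16 in the other epithelial nuclei, and *Mhc*, the myosin heavy chain gene, at 12, against 1.03. *grh* was low in it, at 3.82, against 12.7. The part of muscle RNA in its ribosomal protein share, and of this sub-cluster in the higher muscle marker sum at day 5 (26.8 and 26.7, against 13.9 and 18.8 in fed flies), was not tested. Without it 75 genes were lower and 0 higher on summed UMIs too, with a median log2 difference of -0.60. Of the 15 sub-clusters present in every library, 13 had both day 5 medians below both fed ones and 2 had them above. Flight muscle had 4.51% and 4.46% at day 5, against 9.95% and 10.1% in fed flies, and 21 of the 25 other clusters had both day 5 medians below both fed ones, so a lower share was not confined to epithelium.

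**Figure D4:**
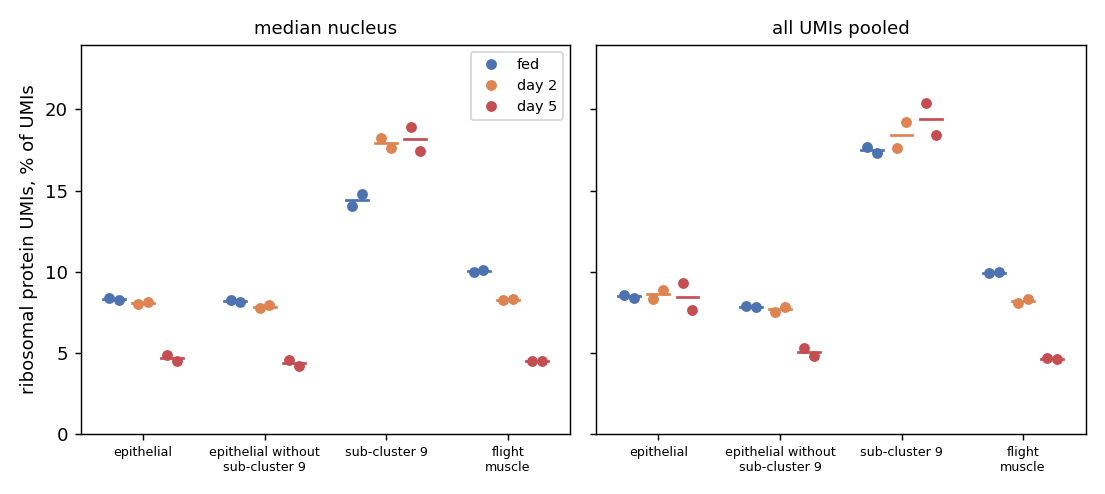
Percent of UMIs from cytosolic ribosomal protein genes in the median nucleus (left) and over all pooled UMIs (right), with 1 point per library and a line at the mean of a condition, for epithelial nuclei, epithelial nuclei without sub-cluster 9, sub-cluster 9 and flight muscle. The day 5 points lie below the fed points in the median epithelial nucleus (4.83 and 4.46 against 8.37 and 8.26) but overlap them in the pooled epithelial UMIs (9.27 and 7.64 against 8.57 and 8.38), and sub-cluster 9 lies highest throughout.

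Sub-cluster 14 had 28 nuclei in day 2 library 1, 35 in day 2 library 2 and 0 in the fed and day 5 libraries, and it was the only sub-cluster limited to 1 condition. *chinmo*, whose product keeps neurons and epithelia of the larva in an early state, stood at 56.5 in it, against 0.345 in the other day 2 epithelial nuclei, and *lin-28*, an RNA-binding regulator of developmental timing, at 3.34, against 0.0219. *Eip93F*, an ecdysone-induced factor gene of adult fate, stood at 1.42, against 56.1, and *lncRNA:let7C*, the host transcript of the let-7 microRNA, had 0 UMIs, against a level of 7.14, at least 23.5-fold lower by a floor of 3 counts over the sub-cluster. *mamo* (1.01, against 32.2), *Syp* (2.02, against 24.6) and *br* (0.607, against 2.54), other genes of developmental timing, were also lower there. *grh* stood at 21.6 in it, against 12.3, so these nuclei carried the marker of the cluster.

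This choice of genes was made after their values had been seen, and because the sub-cluster was built from all genes, nuclei were also counted by *chinmo* and *Eip93F* alone. Nuclei with at least 2 *chinmo* and at most 1 *Eip93F* UMIs numbered 28 and 36 at day 2 (3.23% and 4.09% of the epithelial nuclei) and 1 and 1 at day 5, against 0 and 0 in fed flies, and 57 of them lay in sub-cluster 14. With 2 libraries against 2 no exact test can go below 0.333, and none was run. In 7 other clusters such nuclei occurred in both day 2 libraries and in none of the fed and day 5 libraries, among them fat body (5 and 4) and multidendritic neurons (5 and 5). Whether these nuclei belong to the condition or to its 2 preparations cannot be told apart. Whether nuclei with larval cuticle genes and few *Eip93F* UMIs came from the adult flies under study was not tested, and their part in the day 2 counts is given by the values without them.

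**Figure D5:**
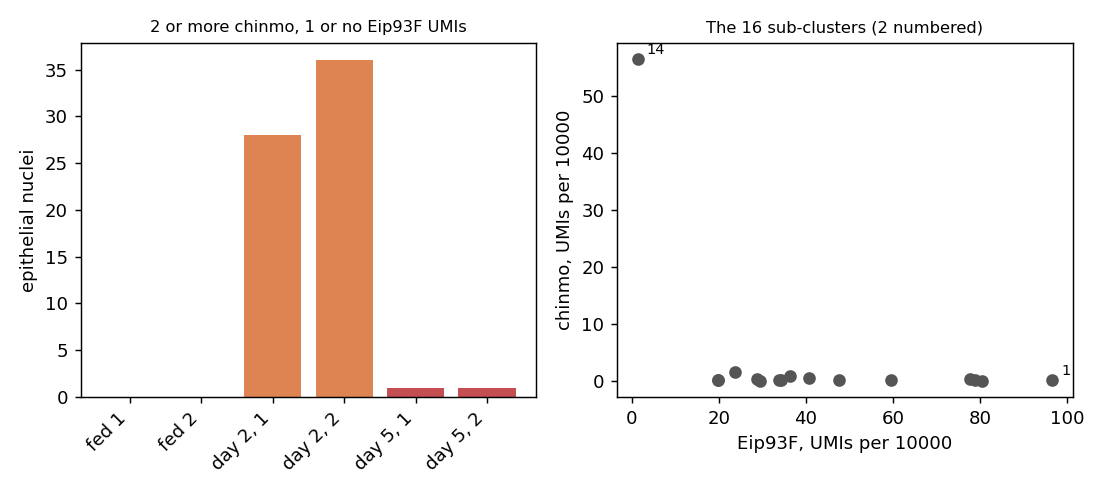
Left, number of epithelial nuclei with at least 2 *chinmo* and at most 1 *Eip93F* UMIs in each library: 0 and 0 in fed flies, 28 and 36 at day 2, and 1 and 1 at day 5. Right, level of *chinmo* against level of *Eip93F* in the 16 sub-clusters, in UMIs per 10000, where sub-cluster 14 (56.5 and 1.42) stands apart from the other 15.

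The 63 measured cuticle protein genes gave 14.4 and 14.9 UMIs per 10000 in fed flies, 21.2 and 26.7 at day 2 and 11.4 and 13.6 at day 5, and without sub-cluster 14 the day 2 values were 14.6 and 15.4, so the excess over fed flies lay mostly in that sub-cluster and most cuticle protein RNA outside it. *Cpr47Eg* had 74 and 195 UMIs in the day 2 libraries and 0 in the other 4, and 255 of these UMIs lay in sub-cluster 14. The near-identical copies *Lcp65Ag1*, *Lcp65Ag2* and *Lcp65Ag3*, larval cuticle protein genes between which reads may have been split, behaved alike, with 436 of the UMIs of *Lcp65Ag2* in the sub-cluster.

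Most of the strongest day 2 rises were of this kind. *CG15282* had 1.90 and 1.78 in day 2 nuclei and 0 in both fed libraries, at least 140-fold higher by a floor of 3 counts over the fed group, *CG10953* 1.51 and 2.65 (at least 160-fold) and *CG30457* 1.00 and 2.51 (at least 136-fold), all with 0 in fed flies. *chinmo* had 3.13 and 3.33 at day 2, against 0.158 and 0.141 in fed nuclei. Without sub-cluster 14 *chinmo*, *CG15282*, *CG10953* and *CG13731* lost their calls (adjusted p = 0.340, 0.337, 0.342 and 0.617), and *CG30457*, *Lcp65Ag1* and *Lcp65Ag3* kept theirs (0.00696, 0.0225 and 0.0123) with smaller differences. *CG41520* and *MtnA* kept theirs (2.2e-07 and 1.0e-06). Over all epithelial nuclei *CG30457* lost its day 2 call without either fed library. *ninaE*, the rhodopsin gene of the eye, was called higher at day 2 at 0.533 and 0.289, against 0 and 0.00881 in fed nuclei, and stood at 0.671 and 0.262 in other body nuclei of day 2, against 0.0180 and 0.0219 of fed flies, so its RNA was higher at day 2 across clusters, in flies whose heads had been removed.

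Among genes of nutrient signalling, *InR*, the insulin receptor gene, stood at 11.1 and 10.4 in fed flies, 14.1 and 14.9 at day 2 and 21.1 and 22.4 at day 5, with no overlap between the 3 conditions (log2 0.43 ± 0.09, adjusted p = 0.0040 at day 2, and 1.01 ± 0.09, adjusted p = 1.4e-07 at day 5). The day 2 call was lost without either fed library (adjusted p = 0.20 and 0.314) or day 2 library 2 (0.188). *Thor*, which encodes the translation inhibitor 4E-BP, had 10.6 and 8.76 in day 5 nuclei, against 3.35 and 3.44 in fed nuclei (1.51 ± 0.13, adjusted p = 4.2e-07), but its day 2 levels of 3.34 and 3.92 were not called (0.88). *Lk6*, a kinase gene whose product phosphorylates eIF4E, had 41.6 and 41.4 at day 5, against 15.9 and 15.5 (1.40 ± 0.07, adjusted p = 1.5e-08).

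*MtnA*, a metallothionein gene, led the genes named as higher at day 5. It stood at 5.77 and 6.64 in fed flies, 13.1 and 14.7 at day 2 and 38.4 and 28.7 at day 5 (log2 1.16 ± 0.14, adjusted p = 7.3e-07 at day 2, and 2.42 ± 0.14, adjusted p = 3.3e-11 at day 5). *bmm*, the triglyceride lipase gene, had 1.33 and 1.52 at day 5, against 0.525 and 0.572 (1.37 ± 0.19, adjusted p = 5.0e-04), at a level below that of other nuclei (0.765, against 3.17). *ImpL2*, a secreted binder of insulin-like peptides, had 0.0211 and 0.0867, against 0.324 and 0.291 (-2.49 ± 0.54, adjusted p = 0.0029), values that rest on few UMIs and lose the call without fed library 1 (0.0748). *foxo* (8.40 and 8.73, against 8.26 and 8.59) and *Desat1* (3.65 and 3.69, against 3.71 and 3.93) were not called at day 5, with adjusted p of 0.17 and 1.0. Of the 33 tested genes of the insulin, FOXO and TOR pathways 1 was higher and 0 lower at day 2, and 5 were higher and 4 lower at day 5 (4 and 2 on summed UMIs). Over all genes the shares on mean values were 1.59% higher and 2.59% lower at day 2, and 6.61% and 13% at day 5.

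Of 33 tested lipid genes 6 were higher and 11 lower at day 5 (6 and 7 on summed UMIs, against 6.61% and 13% of all genes on mean values), and 2 were lower at day 2 (2.59% of all genes). The higher ones were *bmm*, *SREBP*, a regulator of lipid synthesis (log2 1.03 ± 0.17, adjusted p = 7.5e-05), *ACC*, acetyl-CoA carboxylase (0.60 ± 0.12, 0.0034), *ATPCL*, ATP citrate lyase (0.46 ± 0.14, 0.040), and the lipophorin receptors *LpR1* (1.54 ± 0.17, 2.2e-04) and *LpR2* (0.81 ± 0.14, 0.0051). *SREBP* had 2.58 and 3.12 in day 5 nuclei, against 1.34 and 1.44 in fed nuclei, and *LpR1* 2.34 and 2.25, against 0.815 and 0.766. The lower ones included *whd*, carnitine palmitoyltransferase (-0.50 ± 0.12, 0.0070), *Mcad*, acyl-CoA dehydrogenase (-0.85 ± 0.18, 0.0018), *Mtpbeta*, of the trifunctional protein (-1.06 ± 0.22, 0.0019), and *scu* (-0.71 ± 0.16, 9.6e-04). They also included *apolpp*, *Lsd-1* and *Lsd-2*, whose epithelial levels of 6.90, 0.388 and 8.17 were below the levels of 51.8, 1.55 and 17.4 in other nuclei. *SREBP* and *LpR1* kept their calls without each library in turn, while *ACC*, *ATPCL*, *LpR2*, *whd*, *Mcad*, *Mtpbeta* and *scu* lost theirs without fed library 1 (adjusted p between 0.0522 and 0.255), and all of these but *scu* without fed library 2 as well (0.0595 to 0.187).

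Sugar metabolism had 5 genes higher and 4 lower of 30 at day 5, and 2 and 2 at day 2. On summed UMIs these counts were 4 and 2, and 1 and 0, and the shares of all genes on mean values were 6.61% and 13% at day 5 and 1.59% and 2.59% at day 2. *Pgi*, phosphoglucose isomerase, had 2.47 and 2.04 in day 5 nuclei, against 1.04 and 1.04 in fed nuclei (log2 1.11 ± 0.16, adjusted p = 2.2e-04), and *Hex-A*, hexokinase, 7.94 and 9.71, against 4.82 and 5.05 (0.83 ± 0.16, 0.0021, but 0.155 and 0.0887 without fed library 1 or 2). *Tret1-1*, the trehalose transporter gene, was lower at day 2 (2.79 and 2.93, against 4.45 and 4.68, adjusted p = 0.031) and at day 5 (2.05 and 2.84, 0.0037), and lost both calls without either fed library (0.386 and 0.531 at day 2, 0.0858 and 0.138 at day 5). Of 23 autophagy genes only *Atg18b* was called, higher at day 5 (0.015), and not on summed UMIs (0.0902) or without either fed library (0.164 and 0.297). The heat shock and oxidative stress list had 3 higher and 7 lower of 18 at day 5 (2 and 3 on summed UMIs), against 6.61% and 13% of all genes. *Hsp26* had 0.971 and 0.802, against 3.39 and 3.69 (-1.99 ± 0.15, 1.6e-08), and *Xbp1*, a factor of the unfolded protein response, 4.60 and 4.42, against 2.18 and 2.40 (0.98 ± 0.12, 4.4e-05).

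Of 14 tested immune genes 5 were called higher and 2 lower at day 5 (6.61% and 13% of all genes), and 2 and 2 at day 2 (1.59% and 2.59%). On summed UMIs the counts were 5 and 1 at day 5, and 0 and 0 at day 2. *BomS2*, which encodes a short secreted peptide of the Toll response, had 1.94 and 2.04 in day 5 nuclei, against 0.631 and 0.757 in fed nuclei (log2 1.52 ± 0.19, adjusted p = 1.8e-05), and *BomS1* and *BomS3* were called too (0.017 and 9.8e-05). *Rel*, the NF-kappaB factor of the Imd pathway, had 0.929 and 0.867, against 0.412 and 0.352 (1.24 ± 0.21, 0.0012), and *cact*, the inhibitor of the Toll pathway factors, 8.34 and 8.89, against 6.38 and 5.69 (0.52 ± 0.13, 6.5e-04). Without fed library 2 *Rel*, *cact* and *BomS1* lost their calls (0.0626, 0.0524 and 0.120), and without fed library 1 *BomS1* did (0.340). *Drs*, the antifungal peptide gene, was far higher in epithelial nuclei than elsewhere (19.6, against 1.38). Sub-cluster 13, with 107 nuclei, held 8450 of its UMIs, at a level of 367, against 3.35 in the other epithelial nuclei. Its libraries scattered, at 12.1 and 14.9 in fed flies, 30.1 and 19.6 at day 2 and 14.3 and 34.8 at day 5, and only the day 2 difference in mean value was called (2.0e-04, but 0.407 on summed UMIs, and 0.0956 and 0.0519 without fed library 2 or day 2 library 1).

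Of 25 tested cuticle, chitin and apical matrix genes 3 were higher and 0 lower at day 2 (1.59% and 2.59% of all genes), and 1 was higher and 3 lower at day 5 (6.61% and 13%). On summed UMIs the counts were 0 and 0 at day 2, and 1 and 4 at day 5. The 3 at day 2, *verm*, *Cda4* and *pio*, lost their calls without sub-cluster 14 (adjusted p = 0.573, 0.808 and 0.0881). *qsm*, a zona pellucida domain gene, was lower at day 5 (6.29 and 6.39, against 8.14 and 7.79, 9.5e-04), and *Gasp* higher (3.93 and 1.91, against 1.09 and 1.36, 0.011). Without fed library 1 both lost their calls (0.0991 and 0.292), and *Gasp* also without fed library 2 (0.217) or day 5 library 1 (0.0600). Of 16 pigment and sclerotization genes *yellow-h* was higher at day 5 and *ple*, *Ddc* and *yellow-e* lower, the last at 0.127 and 0.108, against 0.403 and 0.476 (-1.79 ± 0.28, 0.0039, but 0.120 without fed library 2).

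Junction, polarity and adhesion genes gave 6 higher and 6 lower of 44 at day 5 (6.61% and 13% of all genes), and 0 and 2 at day 2 (1.59% and 2.59%). On summed UMIs the counts were 1 and 5 at day 5, and 0 and 1 at day 2. The polarity genes *scrib*, *crb* and *baz* were higher by at most 0.35 on the log2 scale, with *scrib* at 16 and 17.9 in day 5 nuclei, against 12.7 and 13.8 in fed nuclei (0.35 ± 0.09, adjusted p = 3.2e-04, but 0.0579 without fed library 1). The lower ones included *mesh* and *Ssk*, septate junction genes of the gut, whose epithelial levels of 0.146 and 0.199 were below the 0.911 and 0.378 of other nuclei, and the collagen genes *Col4a1* and *vkg* (0.668 and 0.364, against 2.58 and 1.23 elsewhere). Selector and region genes gave 8 higher and 0 lower of 44 at day 5, and 2 and 0 at day 2, against the same shares of all genes, but on summed UMIs 2 were higher at day 5 and 0 were called at day 2. *Dll*, the appendage gene, had 2.47 and 2.56, against 2.03 and 2.06 (0.30 ± 0.12, 2.2e-04, but 0.156 on summed UMIs), and *dac*, also of appendages, 1.98 and 1.19, against 0.683 and 0.537 (1.34 ± 0.26, 0.0010, but 0.0537 and 0.0974 without fed library 1 or 2). Of the tested Hox genes *Scr*, *Antp*, *Ubx*, *abd-A* and *Abd-B* only *Abd-B* was called, at day 5 (0.031). It was not called on summed UMIs (0.14) or with fixed sub-cluster shares (0.62). *lab*, *pb* and *Dfd* were found in too few nuclei to be tested.

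Of 11 clock genes 3 were higher and 1 lower at day 5 on both scales (6.61% and 13% of all genes on mean values) and none was called at day 2. *tim* had 4.64 and 5.20 in day 5 nuclei, against 2.72 and 2.85 in fed nuclei (log2 0.82 ± 0.12, adjusted p = 2.0e-05), *vri* 3.67 and 4.18, against 2.35 and 2.62 (0.66 ± 0.13, 1.8e-04), and *Clk* 4.45 and 3.97, against 6.33 and 6.57 (-0.62 ± 0.11, 1.9e-04). The hour of collection is not given in the sources used here, and its part was not tested. Of 20 ecdysone and juvenile hormone response genes *Eip74EF*, *Blimp-1* and *Met* were higher at day 5 (adjusted p = 2.3e-04, 0.0010 and 0.043) and *ftz-f1* lower at day 2 (0.044). On summed UMIs none of these 4 passed the threshold (0.141, 0.102, 0.0848 and 0.0577).

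Between day 5 and day 2, with both starved, the genes with the smallest adjusted p that were higher at day 5 were *CG14245* (1.14 and 1.19, against 0.174 and 0.199 at day 2), *Lk6*, *MtnA*, *CG5953* (5.07 and 5.61, against 3.01 and 3.20) and *Ance-3*. The lower ones included *Cyp4g1*, whose product completes cuticular hydrocarbons in oenocytes, at 5.93 and 6.22 in day 5 nuclei, against 10.8 and 11.5 in day 2 nuclei. Its level in oenocyte nuclei was 82.2, and the summed level of 4 oenocyte markers in epithelial nuclei was 6.80 and 7.61 at day 5, against 11.9 and 13.1 at day 2. The part of oenocyte RNA in the *Cyp4g1* result was not tested. *RpLP2*, *RpS5b* and *RpLP1*, ribosomal protein genes, and *CG17108* (1.10 and 1.45, against 3.81 and 4.0) completed the list.

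Whether the response of epithelial nuclei differed from that of the 25660 other body nuclei outside the ovary was tested within libraries. On mean values 312 genes (4.17%) differed at day 2, 171 above the other body nuclei (2.29%) and 141 below (1.89%), and 1047 (14%) at day 5, 767 of them above the other body nuclei (10.3%) and 280 below (3.74%). On summed UMIs the counts were 0 and 19, with 650 and 1465 genes at an unadjusted p under 0.05, and 6 genes were called on both scales at day 5. Among these 6, *Jabba*, a lipid droplet protein gene that fell in epithelial nuclei at day 5 (log2 -1.32 ± 0.18), had a difference of responses of 2.38 ± 0.18 and *opa*, a zinc finger factor gene, of 3.97 ± 0.40 (adjusted p = 0.0465 each, limma on summed UMIs). The mean values give weight to every nucleus alike and the summed UMIs to every molecule alike, and most of the differences between cell types held on the first of these scales alone.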

How the data were processed

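Nuclei of headless female flies were profiled by 10X 3′ single-nucleus RNA sequencing. Per the labels and the study's methods, reads were counted with Cell Ranger 6.1.1 against BDGP6, libraries were brought to equal read depth and merged, and nuclei were clustered and named with Seurat; use of strand and the treatment of doublets are not given in the sources used here, and no doublet caller was run. The values the authors deposited are on a natural log scale: the natural log of 1 plus 10000 times a gene's share of the nucleus's UMIs, rescaled by the gene's mean UMI per nucleus. UMIs were recovered from them, and 99.965% of 38276569 values came out within 0.05 of a whole number. The formula matched within 0.001 for 95.3614%. All nuclei as deposited were used, with 499 to 19994 UMIs per epithelial nucleus.

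The test across genes was limma 3.58.1 in R 4.3.3 on the mean deposited value per library (6 libraries, 3 conditions, trend, Benjamini-Hochberg adjustment, threshold 0.05), for genes with a value in at least 10 nuclei in at least 2 libraries. Log2 fold changes came from summed UMIs per library, with 0.5 added to each sum and 1 to each total. These are tests on 2 libraries a condition. Sub-clusters came from Leiden clustering (leidenalg 0.10.2, scikit-learn 1.9.0, Python 3.11.15). Gene overlaps were taken from Ensembl release 115. On data simulated for day 2 against fed with 200 changed genes among 7693, the test called 120, of which 3 were unchanged, and recovered 30% of 2-fold and 87% of 4-fold changes.

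Members, lists and rules were chosen with earlier results of these data known. Genes named were the 10 higher and 10 lower with the smallest adjusted p per comparison with fed flies (5 and 5 for day 5 against day 2, and for responses that differ from other body nuclei), called on both scales, with separate groups and an epithelial level at least that of other nuclei; the 25 with the highest ratio; called list genes; the 8 Hox genes; and *grh*, *Thor*, *bmm*, *ImpL2*, *daw*, *Desat1*, *InR* and *foxo*. Not every gene so named is described. The epithelial-high genes, the tyrosine genes and the genes of developmental timing were added after values had been seen. Alternatives varied the filter, scale, scaling factors, depth, nuclei and libraries. Replicate numbers were not treated as pairs.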

Additional observations from a re-analysis of the deposited data

Results flagged for a closer look

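The genes below had a response to starvation in epithelial nuclei that differed from the response in other body nuclei by a test of the difference itself (limma on mean deposited values, natural log scale, epithelial minus other). At day 2 the difference was 0.243 for *Wbp2*, 0.285 for *Glut4EF*, 0.237 for *if*, 0.226 for *RpL32* and 0.318 for *lncRNA:CR45054*. It was -0.257 for *Cp15*, -0.247 for *Cp36*, -0.274 for *Est-6*, -0.259 for *Cp19* and -0.198 for *Vm34Ca*, of which all but *Est-6* are eggshell genes whose RNA was as high in flight muscle nuclei. At day 5 it was 0.441 for *Atf3*, 0.463 for *Glut4EF*, 0.393 for *cact*, 0.563 for *Ance-3* and 0.401 for *hdc*, and -0.577 for *Eip63F-1*, -0.413 for *Msp300*, -0.526 for *CG5945*, -0.546 for *mt:CoI* and -0.411 for *mt:CoIII*. On summed UMIs only *Cp15* at day 5 among these was also called (log2 -2.68, adjusted p = 0.0465, limma).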

How the results depend on the processing

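Counts of called genes depended on scale and filter. For day 2 against fed flies (313 genes) they were 206 with no filter, 174 on summed UMIs and with median-ratio factors, 99 on thinned UMIs, 200 among genes at least as high as in other nuclei, 132 on summed UMIs without sub-cluster 14 and 203 with fixed sub-cluster shares. For day 5 against fed flies (1463) they were 865, 877, 916 with median-ratio factors, 357 thinned, 709 among genes at least as high as elsewhere and 868 on summed UMIs without sub-cluster 14. For day 5 against day 2 (853) they were 407, 439, 451, 148, 453 and 342 in the same order, and 400 with only the 4 libraries compared. Leaving out 1 library gave 117 to 460, 419 to 1510 and 218 to 1027. With a replicate block the counts were 293, 1387 and 770, and 308 and 1068 for differing responses. Same-numbered libraries did not deviate together (correlations 0.0336, -0.00555 and 0.00365), so the numbers are not read as pairs. Responses differing from other body nuclei numbered 0 (day 2) and 19 (day 5) on summed UMIs and 195 at day 2 against trachea cells, with 0 to 530 and 287 to 1100 when 1 library was left out. The share outside the ovary clusters differed by 0.21 at day 2 and -0.18 at day 5 (log2). Signs turned for *Cda4* at day 2 (-0.0194 without sub-cluster 14, -0.36 on summed UMIs without it, -0.0144 with fixed shares), *Nplp2* at day 2 (0.0341 thinned), *B-H2* at day 5 (-0.0412 with fixed shares) and *CG5945* at day 5 (0.98 for its response on summed UMIs). Against trachea cells they turned for *RpL32* (-0.0740) and *lncRNA:CR45054* (-0.060) at day 2 and *Glut4EF* (-0.28) and *Eip63F-1* (0.0623) at day 5. The cause was not tested. Alternatives with sub-cluster 14 or 9 removed or shares fixed were chosen after seeing the data. Depth limits low genes most at day 5, which has the fewest nuclei.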
